A study of Mus musculus with 14 samples.

Results

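The genes described here are 35 members of the cell division programme, 12 that encode proteins of DNA replication and 23 that encode proteins of mitosis. They were chosen by name, and their levels were read from the array probes annotated to those names, which cover 19051 genes in all. A named probe was found for 33 members, with 71 probes among them; the annotation used here names none for Mki67 and Ccnb1. A filter on dim probes kept 31 members for testing, all 12 replication genes and 19 of the mitosis genes. Ccnb2, a mitotic cyclin, and Cenpe, a kinetochore motor, lay at the floor of the arrays, between 6.54 and 6.79 log2 units and between 6.58 and 6.82 log2 units, and were not tested.

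The arrays measured intestinal organoids, epithelial cultures grown in gel, from C57Bl mice aged 2 to 3 months. Both genotypes carried villin-CreER, a tamoxifen-activated Cre recombinase expressed in intestinal epithelium. Both had lost floxed Apc, the brake on Wnt signalling, and the Apc-Prox1-deleted cultures had also lost floxed Prox1, a homeobox transcription factor. Tamoxifen was given for 2 days, R-Spondin1, a Wnt agonist that Apc-mutant cells can do without, was then withheld for 5 days, and RNA was taken 7 days after tamoxifen. No group without Apc deletion was analysed here, so the values say nothing of Apc loss itself. After 4 of the 14 deposited entries were set aside, 2 Apc-Prox1-deleted and 4 Apc-deleted libraries remained in series 1, and 2 Apc-Prox1-deleted and 2 Apc-deleted libraries in series 2. The 4 entries form 2 pairs of copies of 1 array, and in one pair the labels give the copies opposite genotypes. Separate mice or cultures are not stated for the replicates, and a p-value here may reflect technical spread alone.

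Before a cell divides, the MCM helicase, made of Mcm2 to Mcm7, unwinds DNA at licensed origins while enzymes of nucleotide synthesis supply the building blocks. In mitosis, cyclin-dependent kinase 1, the Aurora and Polo kinases and a set of motor proteins build the spindle, and Cdc20 then directs the anaphase-promoting complex to destroy the proteins that hold the cell in metaphase. Replication genes are classical targets of E2F factors, whereas many mitosis genes carry a cell cycle homology region (CHR) that the DREAM and MuvB complexes bind, and CCAAT boxes bound by NF-Y. In the intestine these genes are active in dividing crypt cells and fall silent as cells differentiate.

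Promoter sequences of the members were searched for these elements, on both strands, in RefSeq windows from 250 bases before to 50 bases after each gene start on mouse build GRCm38.p6. The E2F-like element was searched as TTTGGCGC, TTTCCCGC or TTTCGCGC, the CHR-like element as TTTGAA or TTTAAA, and the CCAAT box as CCAAT. Windows matched 10 of 12 replication genes and 19 of 23 mitosis genes. An E2F-like element stood in 5 of 12 replication windows (41.7%) and in 1 of 21 mitosis windows (4.76%), that of Cdk1, against 1.84% of all 32851 windows. TTTGAA stood in 16 of the 21 mitosis windows (76.2%) and in 1 replication window (8.33%), that of Mcm2, against 17.9% of all windows. TTTAAA stood in 28.6% of mitosis windows and 25.0% of replication windows, against 13.2% of all windows. Either spelling stood in 90.5% of mitosis windows and 33.3% of replication windows, against 27.6% of all windows. CCAAT stood in 11 replication windows (91.7%) and 19 mitosis windows (90.5%), against 37.4% of all windows. The windows of the 4 members whose levels passed the test in series 1 (Rrm2, Cdc20, Ect2 and Kif11) are printed below with that of Mcm5, a replication gene that did not pass and that holds an E2F-like element. They are chr8:75109259-75109558 on the plus strand for Mcm5, chr12:24708004-24708303 on the plus strand for Rrm2, chr4:118437294-118437593 on the minus strand for Cdc20, chr3:27153829-27154128 on the minus strand for Ect2 (1 of its 2 windows) and chr19:37376132-37376431 on the plus strand for Kif11. Each runs 5′ to 3′ along the gene, and capitals mark the elements found, spelled TTCAAA for TTTGAA and ATTGG for CCAAT where they lie on the other strand.
Mcm5: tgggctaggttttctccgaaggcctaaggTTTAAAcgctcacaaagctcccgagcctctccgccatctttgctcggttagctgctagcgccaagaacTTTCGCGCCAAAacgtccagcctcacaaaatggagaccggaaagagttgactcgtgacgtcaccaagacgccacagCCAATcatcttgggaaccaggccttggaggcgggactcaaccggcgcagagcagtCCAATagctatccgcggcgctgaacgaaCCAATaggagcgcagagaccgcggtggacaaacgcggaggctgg
Rrm2: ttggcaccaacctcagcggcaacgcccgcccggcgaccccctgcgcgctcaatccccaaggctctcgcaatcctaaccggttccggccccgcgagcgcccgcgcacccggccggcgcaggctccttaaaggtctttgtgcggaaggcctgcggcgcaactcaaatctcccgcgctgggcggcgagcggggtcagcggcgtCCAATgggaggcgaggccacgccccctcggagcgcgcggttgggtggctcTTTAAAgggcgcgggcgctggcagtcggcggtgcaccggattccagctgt
Cdc20: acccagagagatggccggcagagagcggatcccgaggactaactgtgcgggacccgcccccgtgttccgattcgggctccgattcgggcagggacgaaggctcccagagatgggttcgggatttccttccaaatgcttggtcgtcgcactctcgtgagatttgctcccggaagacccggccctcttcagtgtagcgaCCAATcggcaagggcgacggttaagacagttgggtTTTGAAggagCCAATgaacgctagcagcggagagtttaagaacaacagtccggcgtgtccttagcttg
Ect2: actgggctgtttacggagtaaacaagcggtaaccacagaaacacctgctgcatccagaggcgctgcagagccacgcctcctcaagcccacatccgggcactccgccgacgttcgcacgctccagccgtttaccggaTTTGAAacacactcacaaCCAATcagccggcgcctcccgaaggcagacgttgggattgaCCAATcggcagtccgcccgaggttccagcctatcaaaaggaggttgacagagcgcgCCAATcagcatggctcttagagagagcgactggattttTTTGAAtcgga
Kif11: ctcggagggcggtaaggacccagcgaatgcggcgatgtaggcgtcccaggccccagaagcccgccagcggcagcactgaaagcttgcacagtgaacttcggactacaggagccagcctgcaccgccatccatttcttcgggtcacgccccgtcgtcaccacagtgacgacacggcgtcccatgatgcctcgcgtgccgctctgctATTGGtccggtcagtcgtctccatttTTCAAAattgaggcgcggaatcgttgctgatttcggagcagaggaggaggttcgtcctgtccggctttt
In Mcm5 the run of 12 capitals is made of a pair of overlapping E2F-like matches, one on each strand, from position -153 to -142, counted from 1 at the start with no 0. Rrm2 holds TTTAAA right at the start and 1 CCAAT box, and none of the 3 E2F-like spellings. Cdc20 holds TTTGAA at -18 to -13, between a pair of CCAAT boxes. Kif11, the member that moved the other way in series 1, holds TTTGAA on the other strand at -19 to -14, with 1 CCAAT box upstream. Ect2 holds TTTGAA at 2 places and 3 CCAAT boxes. These matches are letters in a window and say nothing of binding.

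Prox1, the gene deleted between the genotypes, followed the labels. Its brighter probe read 7.85 and 8.29 in Apc-Prox1-deleted libraries of series 1, against 9.42 to 10.44 in Apc-deleted ones, and 8.65 and 9.53 in Apc-Prox1-deleted libraries of series 2, against 10.91 and 10.05 in Apc-deleted ones. Levels are on a log2 scale whose floor is near 6.7, and differences are Apc-Prox1-deleted minus Apc-deleted. The defining epithelial genes Krt8, Krt19 and Vil1 were well above the floor (10.04 to 13.89 across these 3 genes), although the Epcam probe was not (6.65 to 6.87). All 8 fibroblast markers stayed between 6.5 and 7.01. Of the immune list, Ptprc and Itgam stayed at or below 6.89, while Cd14 read 7.40 to 9.12 and Laptm5 6.78 to 7.28. Of the endothelial list, Pecam1 stayed at or below 6.86, while Egfl7 read 8.81 to 10.21. Cell types are mixed in such RNA, so fewer dividing cells and less RNA per cell cannot be told apart.

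Most replication and mitosis genes read much the same in organoids with and without Prox1. Over both series the differences of the 31 tested members ran from -0.31 to 0.43 log2, with a median of 0.059, beside 0.002 for all 13418 genes tested. The 95% interval over both series lay within 1.5-fold either way for 29 of the 31 members, all 12 replication genes among them. The same held for 11497 of the 13418 genes tested. Members read near the floor, such as Pcna and Ccna2, have narrow intervals, but differences are understated there. The exceptions were Cdc20 and Kif23, whose intervals reached past 1.5-fold on the higher side. Within single series the intervals were wider. They lay within 1.5-fold for 26 members in series 1 and 23 in series 2, with 10 of the 12 replication genes in each. For all genes tested the counts were 10475 in series 1 and 10214 in series 2. With limma and Benjamini-Hochberg adjustment over all probes, called at an adjusted p below 0.05, 3 members rose over both series (Rrm2, Cdc20 and Ect2), none fell and 28 did not pass. That is 9.68% of the members called, against 15.8% of all genes tested; 7.11% of all genes were called higher and 8.73% lower.

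The calls came from series 1. There, Rrm2, Cdc20 and Ect2 rose, Kif11 fell and 27 members did not pass, which makes 12.9% of members called beside 10.7% of all genes (4.72% higher and 5.96% lower). In series 2 no member was called by limma, and none had an unadjusted p below 0.05, beside 5.18% of all genes called there. The median 95% interval of a member reached 0.32 log2 to either side in series 1 and 0.37 in series 2. The series 2 difference minus the series 1 difference was called for no member with limma (0.619% of all genes), and 1 member, Pcna, had an unadjusted p below 0.05 in that test. The sign was the same in both series for 15 of 31 members (48.4%), against 66.4% of all genes. Across the 31 genes the differences of the 2 series correlated at r = 0.34, beside 0.68 across all 13418 genes. These points share their libraries and their normalization and are not independent. The members spanned -0.47 to 0.57 in series 1 and -0.32 to 0.39 in series 2. All genes spanned -3.28 to 3.01 and -4.05 to 4.03. A narrow span around 0 can lower both r and the share of like signs, so these are not like comparisons. Every Apc-Prox1-deleted library lay above every Apc-deleted one for 9 members in series 1 (15.9% of all genes) and for 8 members in series 2 (21.8% of all genes). The opposite order was seen for 2 members in each series, Kif11 and Tpx2 in series 1 and Mcm7 and Tyms in series 2, beside 17.2% and 21.4% of all genes. Mcm3, Rrm2 and Cdc20 stood above in both series, beside 8.16% of all genes, and no member stood below in both, beside 9% of all genes.

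**Figure D1:**
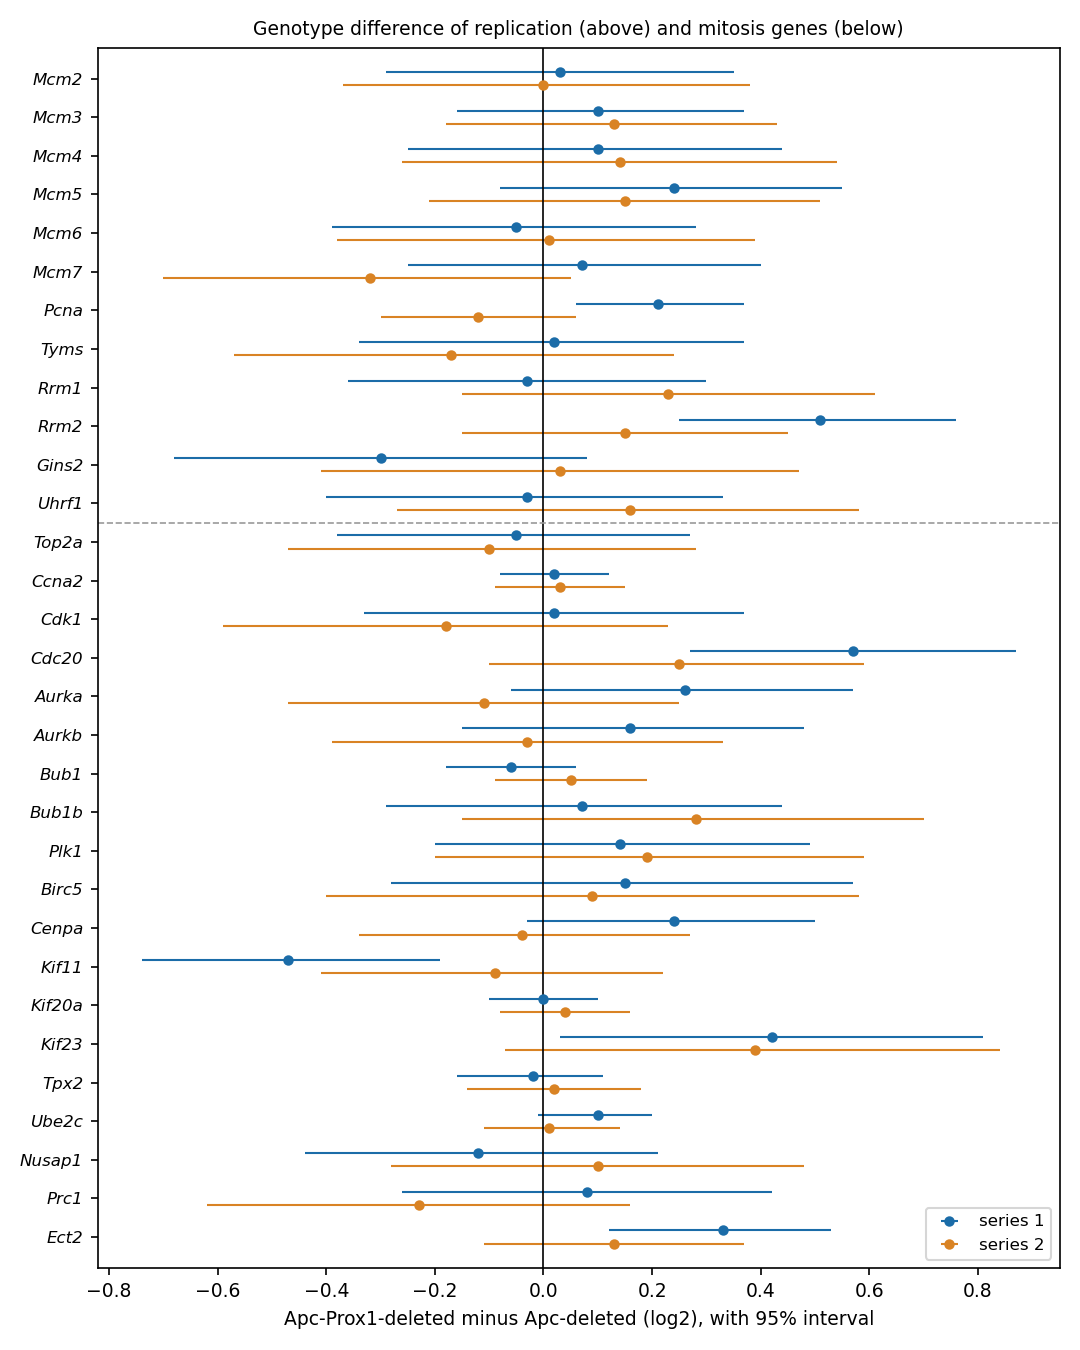
Difference in level between Apc-Prox1-deleted and Apc-deleted organoids (log2, points) with its 95% interval (bars) for the 31 tested members, replication genes above the dashed line and mitosis genes below it, series 1 in blue and series 2 in orange. Most intervals cross 0 in both series; those of Rrm2, Cdc20, Ect2 and Kif11 clear it in series 1 only, as do those of Pcna and Kif23, which were not called after adjustment.

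Among the replication genes, 1 of 12 rose, in series 1 and over both series, and none fell. That is 8.33% called, against 10.7% of all genes in series 1 and 15.8% over both series. The median difference was 0.053 log2 in series 1, 0.08 in series 2 and 0.06 over both. The MCM helicase genes did not pass in any comparison. Their differences over both series were 0.02 for Mcm2, 0.11 for Mcm3, 0.11 for Mcm4, 0.20 for Mcm5, -0.03 for Mcm6 and -0.10 for Mcm7, with SEs of 0.09 to 0.12. Mcm5, the largest of these, read 12.13 and 12.35 in Apc-Prox1-deleted libraries of series 1 against 11.82, 12.27, 11.94 and 11.99 in Apc-deleted ones, and 11.92 and 12.03 in Apc-Prox1-deleted libraries of series 2 against 11.69 and 11.97 in Apc-deleted ones, so the genotypes overlapped in both series. Mcm7 read 8.31 in both Apc-Prox1-deleted libraries of series 1, against 7.94 to 8.45 in Apc-deleted ones. In series 2 it read 9.13 and 9.21 in Apc-Prox1-deleted libraries against 9.33 and 9.66 in Apc-deleted ones, a difference of -0.32 (SE 0.18, limma adjusted p = 0.398). A second Mcm7 probe did not share that order: it read 8.50 and 7.82 in Apc-Prox1-deleted libraries of series 2, to either side of the Apc-deleted ones (the higher at 8.07), and differed by 0.12 (SE 0.20, adjusted p = 0.833) there and by 0.03 (SE 0.13) over both series. Gins2, a subunit of the GINS complex that completes the active helicase, differed by -0.15 (SE 0.14), with Apc-deleted libraries of series 1 spread from 9.04 to 9.75.

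Nucleotide supply held the one replication gene that rose. Rrm2 encodes the regulatory subunit of ribonucleotide reductase, which makes deoxyribonucleotides and is produced in S phase. It read 8.82 and 8.72 in Apc-Prox1-deleted libraries of series 1, against 8.18, 8.27, 8.30 and 8.29 in Apc-deleted ones. Apc-Prox1-deleted libraries of series 2 read 8.48 and 8.28, against 8.21 and 8.24 in Apc-deleted ones. Both Apc-Prox1-deleted libraries were above every Apc-deleted one in each series, with a wide gap in series 1 and, for one library of series 2, a narrow one. The difference was 0.51 (1.42-fold, SE 0.12, limma adjusted p = 0.0136) in series 1, 0.15 (SE 0.14, adjusted p = 0.664) in series 2 and 0.35 (1.28-fold, SE 0.10, adjusted p = 0.0241) over both. Series 2 minus series 1 gave -0.36 (SE 0.19, adjusted p = 0.753). A second Rrm2 probe also passed over both series (0.29, adjusted p = 0.0384), and the dimmest, near the floor, did not (0.04, adjusted p = 0.558). Rrm1, the catalytic subunit of the same enzyme, differed by -0.03 in series 1, 0.23 in series 2 and 0.08 (SE 0.12) over both. Tyms, which makes thymidylate, differed by -0.06 (SE 0.12) over both series.

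Pcna, the sliding clamp of the replication fork, was read by a probe close to the floor, so its differences are understated. It read 7.15 and 7.32 in Apc-Prox1-deleted libraries of series 1 against 6.92, 7.05, 7.06 and 7.05 in Apc-deleted ones, and 6.70 and 6.74 in Apc-Prox1-deleted libraries of series 2 against 6.73 and 6.94 in Apc-deleted ones. The genotypes did not overlap in series 1 and overlapped in series 2. The difference was 0.21 (SE 0.07, limma adjusted p = 0.0872) in series 1 and -0.12 (SE 0.08, adjusted p = 0.552) in series 2. Uhrf1, which carries DNA methylation through replication, differed by 0.05 (SE 0.13) over both series. Its probe read 9.28 to 9.58 in all libraries of series 2 and 10.56 to 11.08 in all libraries of series 1, a gap between the series that both genotypes shared.

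**Figure D2:**
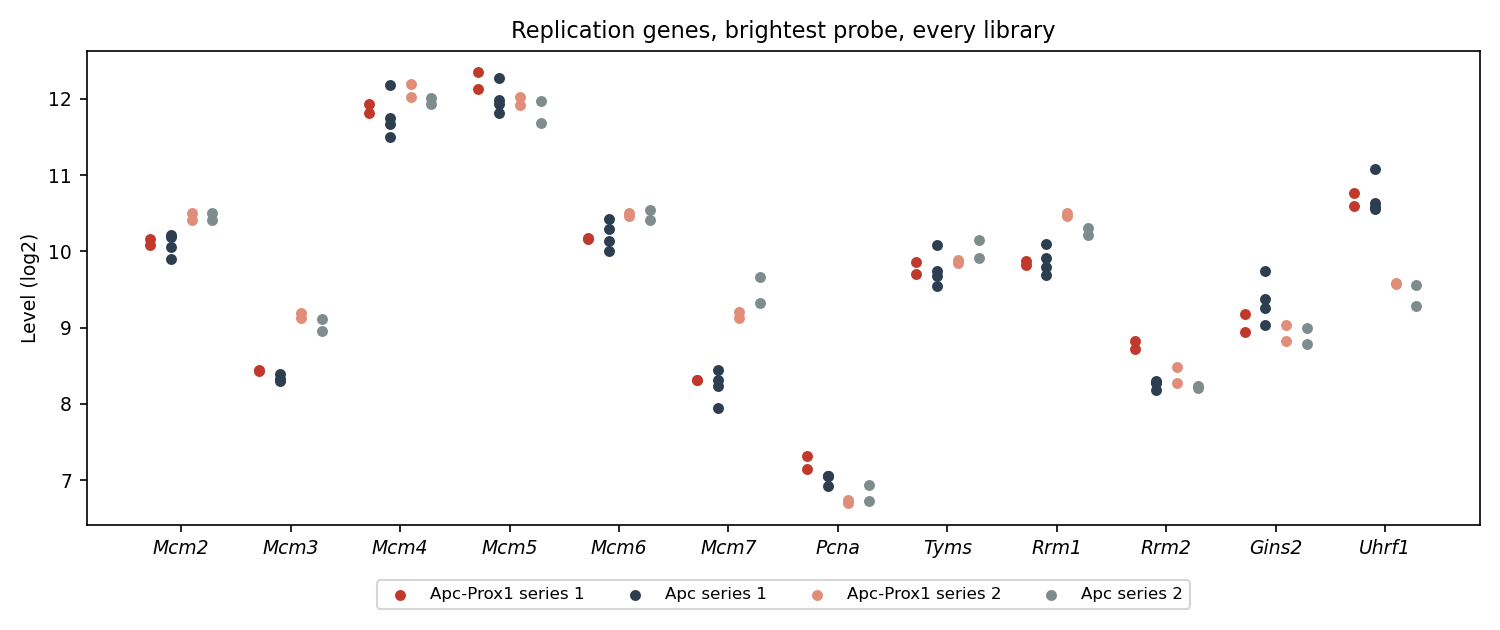
Level (log2) of the 12 replication genes in every library, 1 point per library, with Apc-Prox1-deleted libraries left of Apc-deleted ones within each series. In series 1 the genotypes do not overlap for Rrm2, Pcna and Mcm3. All libraries of one series lie apart from all of the other for Mcm2, Mcm3, Mcm7, Rrm1 and Uhrf1.

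Among the 19 tested mitosis genes, 2 rose over both series and none fell (10.5% called, against 15.8% of all genes). In series 1, 2 rose and 1 fell (15.8% called, against 10.7% of all genes). The median difference was 0.08 log2 in series 1, 0.03 in series 2 and 0.059 over both. Cdc20, the activator that turns on the anaphase-promoting complex, rose most among the members called. It read 11.85 and 12.04 in Apc-Prox1-deleted libraries of series 1, against 11.38, 11.46, 11.24 and 11.42 in Apc-deleted ones. In series 2 it read 11.71 and 11.68 in Apc-Prox1-deleted libraries, against 11.29 and 11.61 in Apc-deleted ones. The genotypes did not overlap in either series, although one Apc-deleted library of series 2 came close. The difference was 0.57 (1.48-fold, SE 0.14, limma adjusted p = 0.0183) in series 1, 0.25 (SE 0.17, adjusted p = 0.513) in series 2 and 0.43 (1.35-fold, SE 0.11, adjusted p = 0.0151) over both. The other 3 probes of Cdc20 gave 0.31, 0.31 and 0.11 over both series and did not pass (adjusted p = 0.17, 0.136 and 0.707). Ube2c, the ubiquitin-conjugating enzyme of the same complex, was read near the floor and differed by 0.06 (SE 0.04).

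Ect2, an activator of the GTPase RhoA that starts the contractile ring of cytokinesis, rose as well. It read 7.54 in both Apc-Prox1-deleted libraries of series 1, against 7.06, 7.27, 7.28 and 7.22 in Apc-deleted ones. Its series 2 readings were 7.19 and 7.01 in Apc-Prox1-deleted libraries, against 6.82 and 7.12 in Apc-deleted ones. The genotypes were apart in series 1 and overlapped in series 2. The difference was 0.33 (1.25-fold, SE 0.10, limma adjusted p = 0.0471) in series 1, 0.13 (SE 0.11, adjusted p = 0.627) in series 2 and 0.24 (1.18-fold, SE 0.08, adjusted p = 0.0464) over both, at levels so close to the floor that the fold is understated. Its second probe was at the floor.

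Kif11 moved the other way in series 1. It encodes the motor that pushes the spindle poles apart. It read 8.02 and 8.15 in Apc-Prox1-deleted libraries of series 1, against 8.62, 8.60, 8.49 and 8.50 in Apc-deleted ones. Its series 2 readings were 8.43 and 8.60 in Apc-Prox1-deleted libraries, against 8.48 and 8.74 in Apc-deleted ones. The genotypes were apart in series 1 and overlapped in series 2. The difference was -0.47 (1.38-fold lower, SE 0.13, limma adjusted p = 0.0335) in series 1, -0.09 (SE 0.15, adjusted p = 0.831) in series 2 and -0.31 (SE 0.11, adjusted p = 0.0679) over both. Series 2 minus series 1 gave 0.37 (SE 0.20, adjusted p = 0.767), so the series were not shown to differ.

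**Figure D3:**
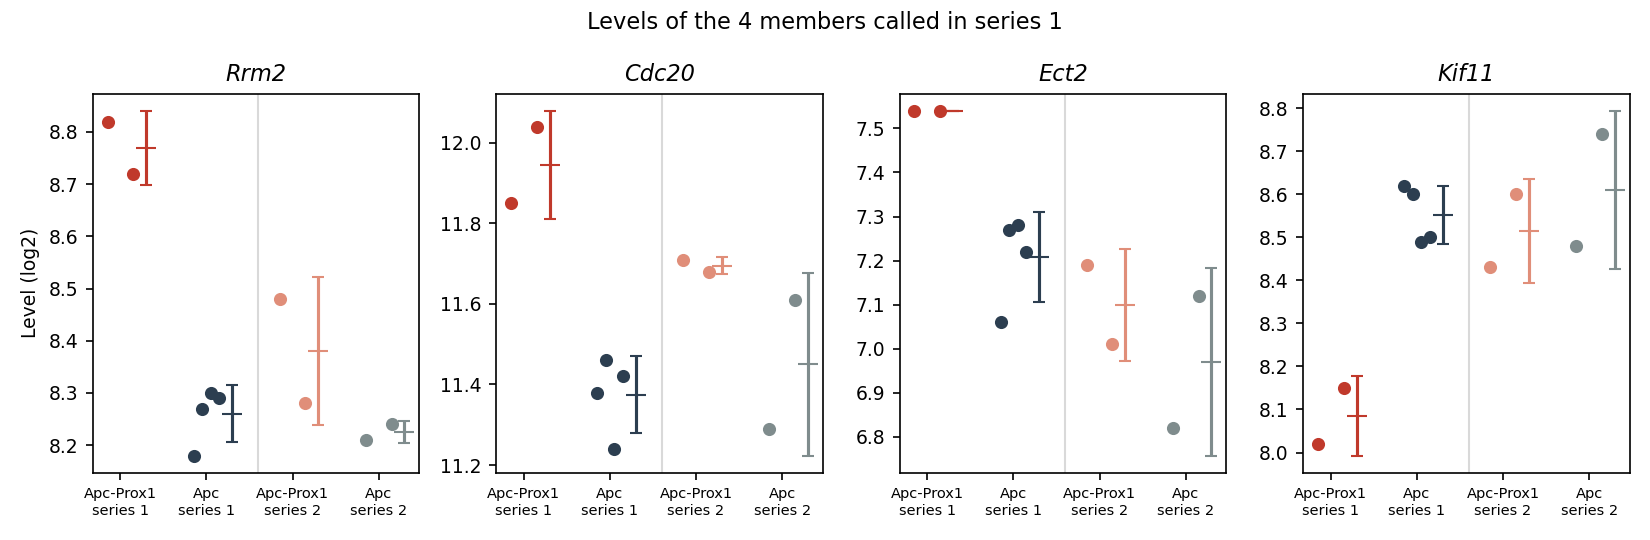
Levels (log2) of Rrm2, Cdc20, Ect2 and Kif11 by genotype and series, with 1 point per library and bars for the mean ± SD (2 Apc-Prox1-deleted and 4 Apc-deleted libraries in series 1, 2 and 2 in series 2). Each panel has its own axis. In series 1 the genotypes are apart in all 4 panels, and in series 2 they are close or mixed.

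The calls rest on the 2 Apc-Prox1-deleted libraries of series 1. When either was left out, 0 members were called in series 1 and 0 over both series. Without the first of them the series 1 differences were 0.46 for Rrm2, 0.67 for Cdc20, 0.33 for Ect2 and -0.40 for Kif11 (limma adjusted p = 0.196, 0.0853, 0.247 and 0.348 in that order). Without the second they were 0.56, 0.47, 0.33 and -0.53 in the same order (adjusted p = 0.105, 0.314, 0.274 and 0.167). The sizes stayed near those of the full set, and no adjusted p was below 0.05. The lone library left in the group is assumed in those fits to vary like the other groups. Leaving out Apc-deleted libraries of series 1 gave 2 to 5 calls in series 1 and 1 to 3 over both series. Without the first Apc-Prox1-deleted library of series 2, 1 member was called over both series. With all 14 entries as labelled, Kif11 gave -0.12 (adjusted p = 0.684) and Ect2 0.02 (adjusted p = 0.926) in series 1, and only Cdc20 was called. That setting returns Apc-Prox1-deleted replicates 3 and 4 to series 1, both copies of entries labelled series 2. The entry copied by replicate 4 is labelled Apc-deleted. At its most different probe, replicate 4 was 1.81 log2 from Apc-deleted series 2 replicate 3. From Apc-Prox1-deleted series 1 replicate 2 it was 6.07 away. The setting therefore mixes series in that group and is not a like test of the calls.

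In the same series 1 libraries, genes of non-dividing, differentiated epithelium were lower. Of 7 such markers listed 6 were tested, and 4 fell in series 1, beside 5.96% of all genes called lower there. They included the enterocyte disaccharidase Sis (-2.48, SE 0.22) and the apolipoprotein Apoa1 (-1.65, SE 0.35). The others were the goblet cell mucin Muc2 (-0.83, SE 0.16) and the enteroendocrine granin Chga (-0.73, SE 0.13). None fell in series 2 by limma, where 1, Muc2, had an unadjusted p below 0.05, on the higher side (0.61, SE 0.19, adjusted p = 0.0864). Series 2 minus series 1 passed for Sis (2.33, limma adjusted p = 0.00147) and Muc2 (1.44, adjusted p = 0.00893). The summed linear level of the list ran from 20500 to 29700 in Apc-Prox1-deleted libraries of series 1 against 31000 to 34800 in Apc-deleted ones, and from 21300 to 24800 in Apc-Prox1-deleted libraries of series 2 against 24400 to 28900 in Apc-deleted ones. Most of that sum is Lyz1, a Paneth cell lysozyme, which read 14.20 to 14.88 and whose genotypes overlapped in both series. Without Lyz1, left out after its values had been seen, the sum ran from 1600 to 1950 in Apc-Prox1-deleted libraries of series 1 against 4570 to 5580 in Apc-deleted ones, and from 1120 to 1890 in Apc-Prox1-deleted libraries of series 2 against 1240 to 1440 in Apc-deleted ones. The genotypes were apart in series 1 and overlapped in series 2. The part of these shifts in the calls of Rrm2, Cdc20, Ect2 and Kif11 was not tested. Krt19 and Krt8 rose over both series (0.73 and 0.50), as did Cd14 (0.82) and Laptm5 (0.30) from the immune list, whereas Egfl7 from the endothelial list (-0.54) and Cd79b (-0.19) fell.

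Kif23, the motor subunit of centralspindlin that bundles the midzone in cytokinesis, gave different answers from different probes. Its brightest probe read 9.68 and 9.95 in Apc-Prox1-deleted libraries of series 1, against 9.22, 9.80, 9.29 and 9.29 in Apc-deleted ones. In series 2 that probe read 10.10 and 10.07 in Apc-Prox1-deleted libraries, against 9.49 and 9.91 in Apc-deleted ones. The genotypes overlapped in series 1 through 1 Apc-deleted library and were apart in series 2. The difference was 0.42 (SE 0.19, limma adjusted p = 0.209) in series 1, 0.39 (SE 0.21, adjusted p = 0.399) in series 2 and 0.40 (SE 0.14, adjusted p = 0.0622) over both. A second probe read 10.18 and 10.40 in Apc-Prox1-deleted libraries of series 1, against 10.30, 10.70, 10.17 and 10.34 in Apc-deleted ones. In series 2 it read 6.84 and 6.94 in Apc-Prox1-deleted libraries, near the floor, against 8.12 and 7.86 in Apc-deleted ones. This probe was the only one of the 61 tested member probes called in series 2 (-1.10, limma adjusted p = 0.00249, with 4.12% of all probes called there). It was lower by over 2 log2 units in series 2 than in series 1 in both genotypes. More than 1 scale fitted the deposited ratios of this probe and the smallest was taken. The gap between series and the size of its difference depend on that choice. It was singled out after its values had been seen. The other 2 probes gave 0.03 and 0.02 over both series. Of the 15 members with a second tested probe, 7 had the same sign over both series on all their probes. Some of those second probes lay near the floor, such as one of Cdk1 (6.67 to 6.94), where a sign means little. The share over all genes was not taken.

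**Figure D4:**
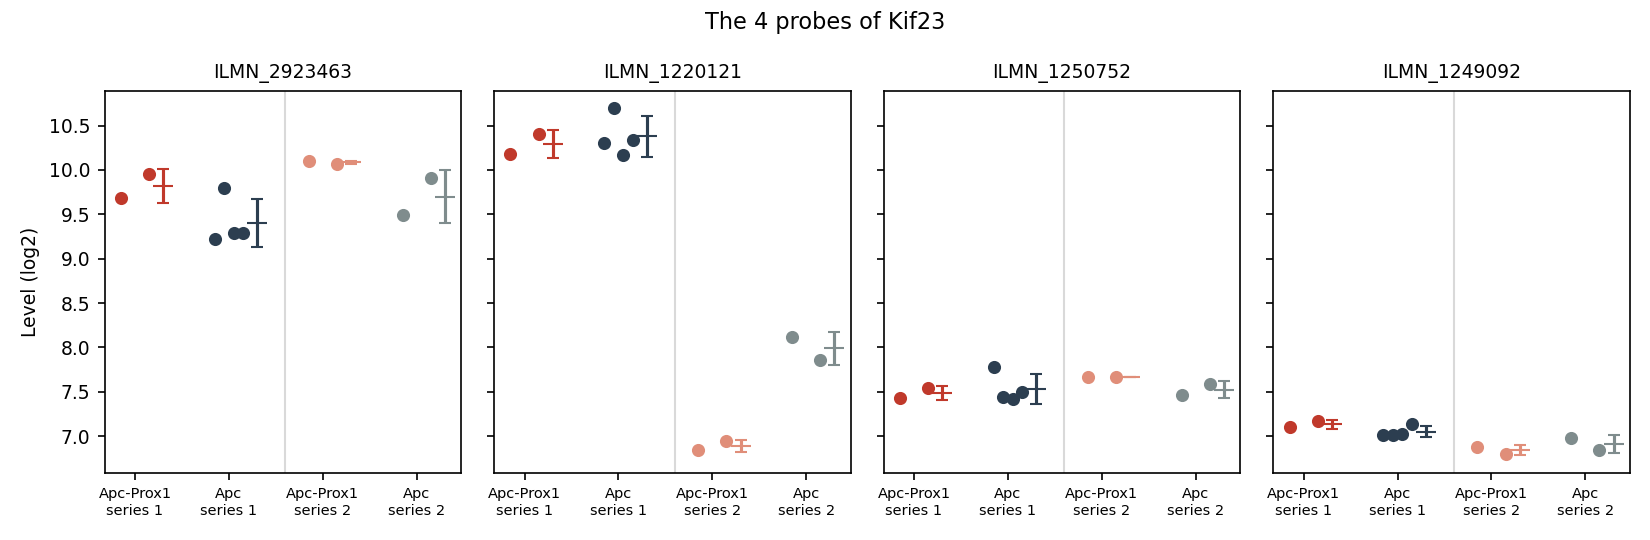
Levels (log2) read by the 4 probes of Kif23, 1 point per library, with bars for the mean ± SD of each genotype and series. The second probe drops in series 2, furthest in the Apc-Prox1-deleted libraries (6.84 and 6.94), while the first reads slightly higher there.

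The remaining mitosis genes did not pass in any comparison. Cdk1, the kinase that drives entry into mitosis, differed by -0.07 (SE 0.12) over both series, and its Apc-Prox1-deleted libraries of series 2 read 10.40 and 9.93 against 10.20 and 10.48 in Apc-deleted ones. Its partner cyclin Ccna2 lay between 6.70 and 6.85 in all libraries, at the floor. Of the mitotic kinases, Plk1 differed by 0.16 (SE 0.12), Aurka by 0.10 (SE 0.12) and Aurkb by 0.08 (SE 0.11). Aurka lay above in series 1 (9.89 and 10.02 in Apc-Prox1-deleted libraries against 9.61 to 9.84 in Apc-deleted ones) and overlapped in series 2. The spindle checkpoint kinase Bub1b differed by 0.16 (SE 0.13), and Bub1, near the floor, by -0.01 (SE 0.04). Birc5, a subunit of the Aurora B complex that also blocks apoptosis, differed by 0.12 (SE 0.15), with Apc-deleted libraries of series 2 at 11.15 and 11.80. Cenpa, the histone variant that marks centromeres, differed by 0.12 (SE 0.10).

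Top2a, which untangles sister chromatids, differed by -0.07 (SE 0.11), and Prc1, the crosslinker of midzone microtubules, by -0.05 (SE 0.12). Nusap1 and Tpx2, both spindle assembly factors, differed by -0.02 (SE 0.12) and 0.00 (SE 0.05). Nusap1 was shifted between series in both genotypes, with 8.06 and 8.17 in Apc-Prox1-deleted libraries of series 2 against 8.16 and 7.87 in Apc-deleted ones, and 9.41 and 9.76 in Apc-Prox1-deleted libraries of series 1 against 9.56 to 9.86 in Apc-deleted ones. Tpx2 and Kif20a, a cytokinesis motor, lay near the floor. Of the 33 members with a probe, 7 averaged below 7 log2 units, where a difference would be hard to see, and 24 averaged 8 or more.

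Summarised per library, neither list separated the genotypes cleanly. Each gene was set against the mean of the Apc-deleted libraries of its series, and the median was taken over the list. That mean includes each Apc-deleted library itself, which draws their deviations together and in series 2 makes them mirror images. The Apc-Prox1-deleted libraries are not centred in this way. For the 12 replication genes this median was 0.015 and 0.083 in Apc-Prox1-deleted libraries of series 1, against -0.116 to 0.082 in Apc-deleted ones. In series 2 it was 0.076 and 0.039 in Apc-Prox1-deleted libraries against -0.039 and 0.039 in Apc-deleted ones. The ranges overlapped in series 1 and met in series 2. For the 19 mitosis genes the medians were 0.052 and 0.095 in Apc-Prox1-deleted libraries of series 1, against -0.039 to 0.048 in Apc-deleted ones. In series 2 they were 0.043 and 0.033 in Apc-Prox1-deleted libraries, between the -0.066 and 0.066 of the Apc-deleted libraries. The mitosis medians of series 1 were apart by a small margin (0.052 against 0.048), and those of series 2 were not. Because only the Apc-deleted libraries are centred, so small a gap decides nothing.

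**Figure D5:**
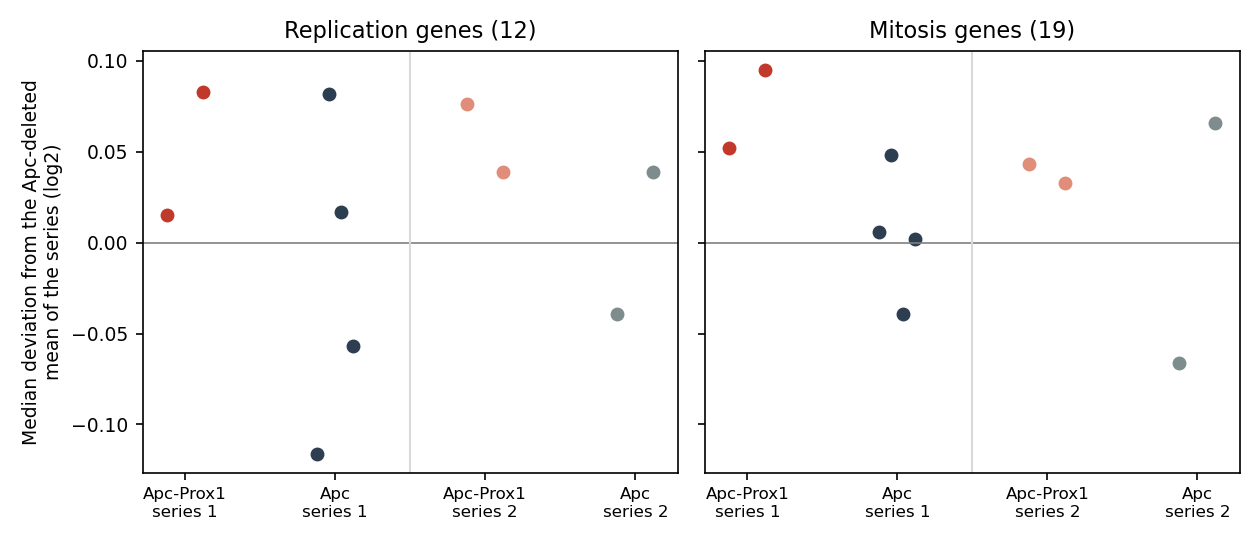
Median deviation of the 12 replication genes (left) and 19 mitosis genes (right) from the mean of the Apc-deleted libraries of the same series (log2), 1 point per library. All medians lie between -0.116 and 0.095; in series 2 the Apc-Prox1-deleted libraries lie within the span of the Apc-deleted ones for mitosis genes.

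The same pathways hold further genes, which were listed apart from the members. Of 47 other replication genes 42 were tested, and over both series 0 rose and 3 fell by limma (7.14%, against 15.8% of all genes called), with a median of 0.02; 9 had an unadjusted p below 0.05 in either direction. They were Tipin, which stabilises stalled forks (-0.38, SE 0.10, limma adjusted p = 0.0177), Rfc3, a subunit of the loader of Pcna (-0.28, SE 0.08, adjusted p = 0.0279), and Rpa3, the smallest subunit of the single-strand binding complex (-0.38, SE 0.11, adjusted p = 0.037). In series 1 Orc3, of the origin recognition complex, fell (-0.41, SE 0.10, adjusted p = 0.0146), and in series 2 none passed, although 3 had an unadjusted p below 0.05 in limma.

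Of 59 other mitosis genes 48 were tested, and over both series 6 rose and 2 fell (16.7%, near the 15.8% of all genes), with a median of 0.047. Those that rose included Ccnf, a cyclin that is part of a ubiquitin ligase (0.34, SE 0.08, limma adjusted p = 0.00678), and Cdca5, or sororin, which protects sister chromatid cohesion (0.44, SE 0.11, adjusted p = 0.012). Cdc27, a core subunit of the anaphase-promoting complex that Cdc20 activates, rose by 0.20 (SE 0.05, adjusted p = 0.0189). Dlgap5, a microtubule-bundling spindle protein, rose by 0.33 (SE 0.09, adjusted p = 0.0252). Anln, or anillin, the scaffold of the contractile ring, rose by 0.56 (SE 0.16, adjusted p = 0.0281). Those that fell were the kinetochore genes Nuf2 (-0.42, SE 0.06, adjusted p = 0.000319) and Cenpm (-0.38, SE 0.12, adjusted p = 0.0438). In series 1, 3 rose and 1 fell, Nuf2 by 0.51 on the log2 scale (SE 0.08, adjusted p = 0.000556). In series 2 none passed, with 5 at an unadjusted p below 0.05 in limma.

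Of 30 regulators of these programmes 26 were tested, and over both series 1 rose and 2 fell (11.5%, against 15.8% of all genes). E2f3, an activating E2F factor, rose by 0.32 (SE 0.09, limma adjusted p = 0.0278), and by 0.44 (SE 0.11, adjusted p = 0.0227) in series 1. Cdk4, the kinase that releases E2F from the retinoblastoma protein, fell by 0.52 (SE 0.12, adjusted p = 0.00873). Chek1, the kinase of the replication checkpoint, fell by 0.22 (SE 0.06, adjusted p = 0.0163). In series 2 none passed, with 3 at an unadjusted p below 0.05 in limma.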

How the data were processed

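Per the labels' protocols, RNA from a column kit with DNase digestion was labelled as biotinylated cRNA for Illumina arrays; background correction and normalization by the authors are not given in the sources used here. The deposited value table holds a ratio for each of 45281 probes and 14 entries. Multiplying the ratios of a probe within a series by 1 number between 6.0 and 16.0 makes them whole steps of 0.01. Each ratio was therefore taken as a log2 level over that probe's series median, and levels were recovered for 45248 probes, the log base being judged from their range (6.35 to 15.23). Where more than 1 divisor gave whole steps the smallest was taken (12 of 33 members, Rrm2 and Ect2 among them), and a larger one would enlarge the level and the difference. Only 5801 of the 45248 probes had a single fitting divisor in each series. Gaps between series, as for Nusap1, Mcm7 and the second Kif23 probe, depend on this choice too. A non-normalized table was not used, since its 28 columns, 14 of them signals, match no label by name. The 91 pairs of entries were compared, and copies (2 pairs, differing by at most 0.02 log2 at any probe, against 1.1671 or more in other pairs) were set aside. Values were quantile normalized over 14 entries and fitted with limma 3.58.1 (lmFit, eBayes with a variance trend, R 4.3.3) on 26342 probes above the array median on at least 3 of 10 libraries, 4 groups in 1 fit (6 residual degrees of freedom; 7 for the additive fit over both series). Benjamini-Hochberg adjustment ran over these probes. A gene is read through its brightest probe, and 13418 genes had it kept; 1 symbol was given to 34861 probes, several to 18 and none to 10369. Named were all members, and of each other list up to 5 genes called in each direction. The members and lists were chosen with earlier results of these data known. The fit was checked on simulated data; the number of arrays limits precision. Alternatives changed the filter, normalization, scale, variance prior, array weights, entries, pairing, probe choice and libraries. Deviations of samples with the same replicate number correlated at -0.0254 and 0.191 in series 1 and at 0.0907 in series 2. In a group of 2 libraries the deviations mirror each other, so this check cannot exclude a pairing. The main fit did not pair samples by number. A fit that did so called 0 members in series 1 and over both series.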

Additional observations from a re-analysis of the deposited data

Results flagged for a closer look

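Each member's 4 Apc-deleted libraries of series 1 were searched for a library far from the rest by Dixon's test; groups of 2 libraries were not searched. Of 33 such groups 3 held one, where about 1 in 20 is set apart by chance. Pcna read 6.92 in Apc-deleted series 1 replicate 1, and the next library was at 7.05. Uhrf1 read 11.08 in Apc-deleted series 1 replicate 2, with the next at 10.63. Kif23 read 9.80 in the same library, with the next at 9.29; without it the series 1 difference of Kif23 was 0.55.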

How the results depend on the processing

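The differences of Rrm2, Cdc20, Ect2 and Kif11 kept their direction in series 1 and over both series under every alternative run, and no called difference turned round. The number of arrays and the floor of the probes limit what can be seen. Of 22 settings in series 1 the call was lost in 4 for Rrm2 (limma adjusted p 0.00125 to 0.196), 4 for Cdc20 (0.00147 to 0.314), 7 for Kif11 (0.00547 to 0.684) and 8 for Ect2 (0.0061 to 0.926); over both series, of 21, in 6, 4 and 12 for Rrm2, Cdc20 and Ect2. The cause was not tested. Members called numbered 4 in series 1 and 3 over both series: 1 and 1 with all 14 entries as labelled, 5 over both series with array weights, and 0 to 5 and 0 to 4 with each library left out. In series 2, and in the test of the difference between series, 0 members were called under every alternative. Probes called in series 1 numbered 2191, with 4610 under array weights, and 740 to 2587 with each library left out. In series 2 there were 1085, with 363 under cyclic loess, 393 without normalization beyond the authors', 360 on the deposited ratios, 170 with all entries, 568 with the series alone and 411 to 1262 with each library left out. Over both series there were 3353, with 5096 under array weights and 1916 to 3808 with each library left out. The fit of 1 series alone gives no value for the results that span both. For the difference between series there were 148, with 64 when every library had to exceed the array median, 59 on the ratios, 73 without a variance trend, 54 with all entries and 66 to 172 with each library left out. Averaging the probes of a gene counts genes in place of probes: 1422, 603, 2191 and 71 were called in series 1, in series 2, over both series and for the difference. The labels give a replicate number, and whether it pairs the samples was not settled. With that number as a block, 0 members were called in series 1 and over both series (Cdc20 0.52 and 0.38, Rrm2 0.54 and 0.35). That fit called 1996 probes over both series and 229 for the difference. Pcna was called in series 1 under cyclic loess (0.27), without normalization (0.27) and with array weights (0.20).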
